A study of Danio rerio with 12 samples.

Results

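Tight and gap junction genes of the adult zebrafish testis were followed by RNA sequencing with and without Fsh, the pituitary follicle-stimulating hormone. The genes were taken by symbol: connexins (gja, gjb, gjc, gjd, gje or cx), claudins (cldn), ZO scaffold proteins (tjp), occludins and other MARVEL proteins (ocln, marveld) and junctional adhesion molecules (jam). This gave 82 gene IDs of the 33737 in the count table: 35 connexins, 32 claudins, 1 claudin-domain gene, 6 MARVEL protein genes, 3 junctional adhesion molecule genes and 5 scaffold genes. The tissue came from adult wild-type fish and was incubated for 48 h. The Fsh-treated tissue received trilostane, a blocker of steroid hormone synthesis, together with Fsh (6 libraries, Trilostane+Fsh), and the control tissue received trilostane alone (6 libraries, Trilostane). All 12 libraries therefore came from tissue given this blocker, and how far steroid synthesis was inhibited was not tested here. The sources used here give no strain, no dose or origin of the Fsh, and no statement on whether libraries with the same number share a fish. The submitters describe the 6 libraries of each group as biological replicates.

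Gap junctions are clusters of channels that join the interiors of neighbouring cells, and each channel is built from connexin proteins. Tight junctions seal the space between cells. Their strands are made of claudins, occludin and related MARVEL proteins stiffen the strands and their corners, junctional adhesion molecules sit beside them, and the ZO proteins tie all of these to the actin cytoskeleton. In the vertebrate testis Sertoli cells, which nurse the germ cells and carry the Fsh receptor, are coupled by connexins and sealed to each other by tight junctions that close off the later germ cells. The same gene families also build epithelial and blood vessel junctions, so whole testis tissue carries several sources of these transcripts.

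The libraries held 4695095 to 11497588 counts, so that 1 count was worth 0.0862 to 0.214 counts-per-million (CPM, scaled by the TMM method). Levels are in CPM and are not corrected for transcript length, so they compare 1 gene between libraries and not 1 gene with another. In whole tissue, fewer cells of a type and less RNA per cell cannot be told apart. The summed level of 12 germ cell marker genes was 3229 to 4755 CPM with Fsh and 3797 to 5140 CPM in controls. Fsh library 5 stood apart: the summed levels of its 23 epithelial and 21 vascular endothelial marker genes were 2179 and 960 CPM, against at most 1169 and 504 CPM in the other 5 Fsh libraries and at most 1354 and 597 CPM in the controls. Of the epithelial sum, krt8 alone held 1406 CPM. Smooth muscle, peritubular and pericyte markers summed to 730 CPM there, against at most 506 CPM in the other Fsh libraries and 584 CPM in controls. Leukocyte markers summed to 1657 CPM, against at most 1359 and 2131 CPM. Germ cell markers were lowest of all libraries there (3229 CPM).

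With Fsh, 2 junction genes rose and 1 fell among the 38 that had enough reads for a test. The gap junction gene GJA1 (connexin 43) rose 1.93-fold and the epithelial-type claudin cldn7a rose 4.43-fold. CLDN5 (ENSDARG00000043716), whose mammalian counterpart is a claudin of blood vessel lining, fell 2.15-fold. Over the whole table the same test, edgeR's quasi-likelihood test with Benjamini-Hochberg adjustment and a threshold of 0.05, called 315 of 19317 genes (1.63%), of which 0.865% were higher and 0.766% lower. The median log2 fold change of the 38 tested junction genes was −0.08, and that of all tested genes was 0. At an unadjusted p under 0.05 stood 12 of the 38, where 17.4% of all tested genes did. In none of the 38 were the Fsh and control levels fully apart, where 1.93% of all tested genes were. DESeq2 and limma-voom each called the same 3 junction genes, and called 5.51% and 1.87% of all genes they tested.

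**Figure D1:**
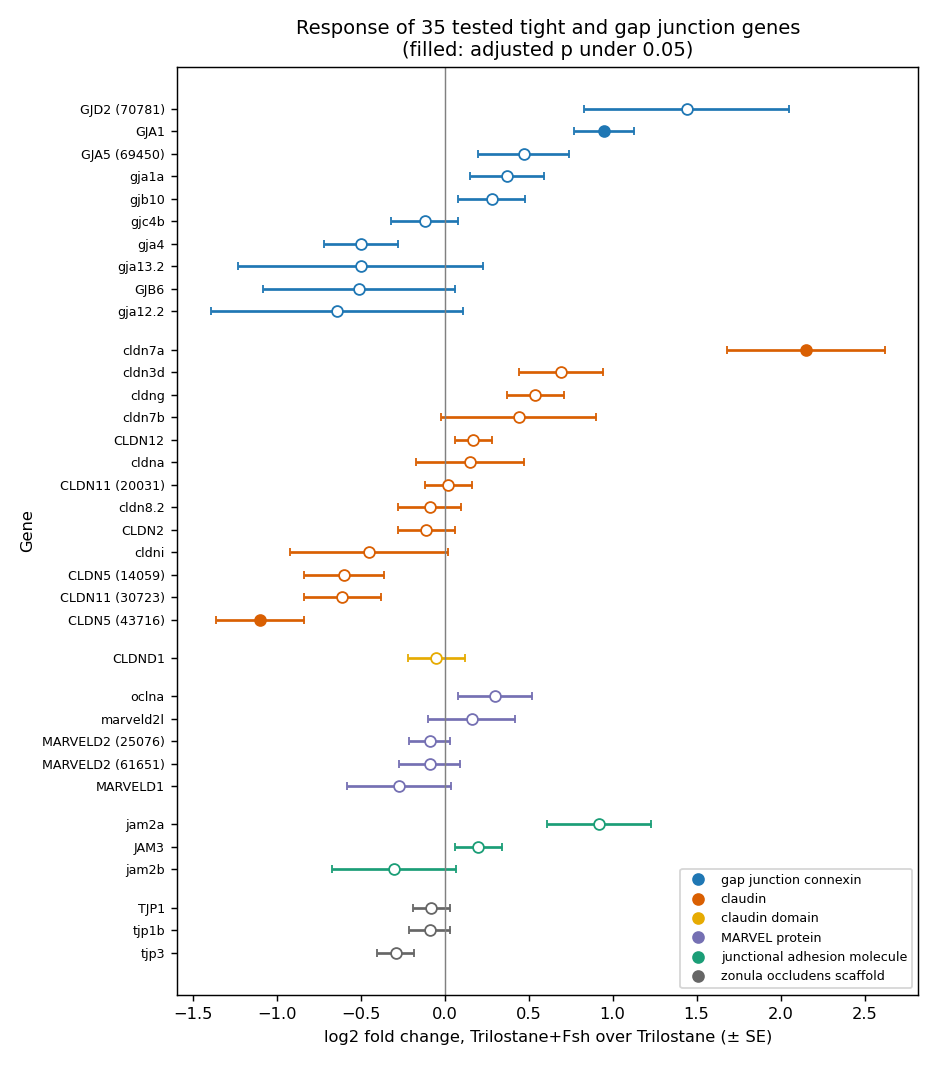
Log2 fold change of 35 of the 38 tested junction genes, Trilostane+Fsh over Trilostane, with its standard error (horizontal axis), grouped by kind of protein (vertical axis and colour). Filled points passed an adjusted p of 0.05. The filled points are GJA1 at 0.95, cldn7a at 2.15 and 1 CLDN5 copy at −1.10. Numbers in brackets are the last 5 digits of the Ensembl ID where copies share a symbol.

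The other 44 genes did not reach the low-count filter, which asks for about 1.17 CPM in at least 6 libraries. They were 24 connexins, 19 claudins and oclnb, with mean levels of 0.03 to 6.2 CPM and a median of 0.324 CPM. All 44 had at least 1 count in some library, and 14 never had more than 3 counts in any library. Only cldnb, cldn3c and gja12.1 reached 5 CPM in some library, and each of them through single libraries that are described further on. The lens connexin gene GJA3, and CLDN10 and CLDN19, which mammals use in kidney tubules, were in this low group with means below 1 CPM in both groups.

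**Figure D2:**
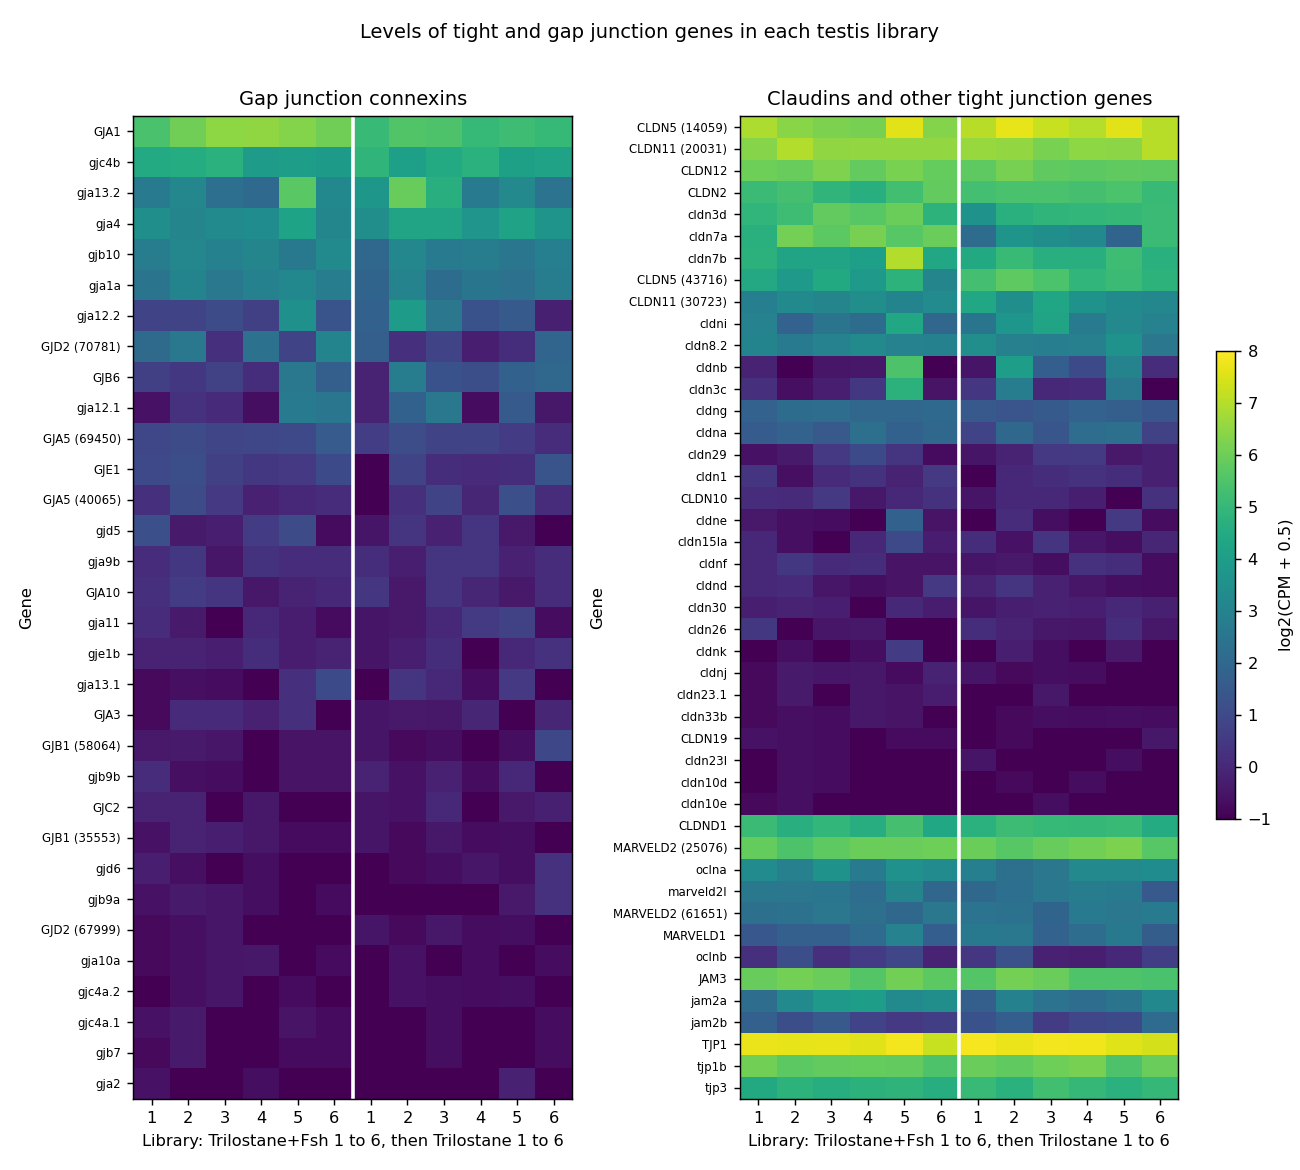
Level of 77 of the 82 junction genes in each library as log2(CPM + 0.5), with connexins on the left and tight junction genes on the right; each block of rows runs from high to low mean level. The 6 Trilostane+Fsh libraries are left of the white line and the 6 Trilostane libraries right of it. GJA1 is brighter left of the line, the lower CLDN5 row is darker there, and the bright cells of cldnb, cldn3c and gja13.2 belong to single libraries.

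Among the connexins, GJA1 was the 1 of 11 tested that rose, and none fell, where 0.865% and 0.766% of all tested genes did. It encodes connexin 43, the connexin best known from Sertoli cells. GJA1 had 42.0, 66.4, 88.3, 90.6, 80.5 and 65.4 CPM in Fsh libraries 1 to 6, against 32.9, 46.0, 44.3, 31.9, 36.7 and 32.2 CPM in control libraries 1 to 6. Of the Fsh libraries, 5 lay above every control, and Fsh library 1 lay between controls 5 and 3. The log2 fold change was 0.95 ± 0.18 (SE, n = 6 per group; edgeR, adjusted p = 0.0196). Without control library 5 the adjusted p was 0.0574. Without Fsh library 5 the rise was 0.91 ± 0.19 (adjusted p = 0.0232).

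The second copy, gja1a, did not pass. It had 5.0, 7.86, 5.60, 7.27, 8.78 and 6.34 CPM with Fsh and 3.20, 7.70, 4.09, 5.16, 4.64 and 6.46 CPM in controls. The groups overlapped across most of their range, and the log2 fold change was 0.37 ± 0.22 (edgeR, adjusted p = 0.416).

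Markers of Sertoli cells were mixed. Of 15 Sertoli marker genes tested, 3 were higher and none lower, where 0.865% and 0.766% of all tested genes were. Among the 3 were the inhibin subunit gene inha (2.64 ± 0.54, edgeR, adjusted p = 0.0318) and the growth factor gene gsdf (2.72 ± 0.60, adjusted p = 0.0418). The log2 fold change was above 0 in 10 of the 15 and below 0 in 5. WT1 was at −0.01 ± 0.17 and NR5A1 at −0.24 ± 0.28 (adjusted p = 0.989 and 0.698). The summed level of the markers was 1743 to 2288 CPM with Fsh and 1700 to 2002 CPM in controls. ALDH1A2 alone held 864 to 1409 CPM with Fsh and 1018 to 1337 CPM in controls. Fsh library 1, with the lowest GJA1 and cldn7a of its group, also had the lowest inha of the Fsh libraries (9.05 CPM, the others 19.4 to 44.4 CPM) and the lowest gsdf (40.5 CPM, the others 53.7 to 186 CPM). The markers amh, SOX8 and cst3 were lowest there too (37.9, 28.5 and 119 CPM). Others differed: DMRT1 was lowest in Fsh library 5 (251 CPM, and 305 CPM in library 1). SOX9 (ENSDARG00000003293) was lowest in Fsh library 6 (16.6 CPM), and NR5A1 was highest in Fsh library 1 (52.1 CPM). Among the controls, library 6 had the highest cldn7a and the highest inha (12.2 CPM), while gsdf was highest in library 2 (41.1 CPM, and 31.4 CPM in library 6) and amh, another Sertoli marker, in library 1 (62.4 CPM, and 32.7 CPM in library 6). The Fsh receptor gene, also on this marker list, did not pass (log2 fold change −0.11 ± 0.14, edgeR, adjusted p = 0.726). Which cells held its transcripts was not tested. Leydig cell markers, of the steroid-making cells, held 2 higher of 11 tested, with sums of 349 to 755 CPM with Fsh and 110 to 341 CPM in controls. The 2 called genes weighed heavily in these sums, with means of 195 and 124 CPM with Fsh and 42.7 and 16.5 CPM in controls. The log2 fold change was above 0 in 8 of the 11 and below 0 in 3. These 3 were lhcgr (−0.36 ± 0.26), HSD17B3 (−0.09 ± 0.24) and CYP11A1 (ENSDARG00000002347) (−0.01 ± 0.17). The part of cell numbers in the rise of GJA1 and cldn7a was not tested.

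In the order of protein-coding genes in RefSeq's GRCz12tu annotation, matched by symbol for 58 of the 82 genes, gja1b (also listed there under the name gja1) is followed by gja13.2, gja12.2, gja12.1 and gja13.1, with 1 gene between gja12.2 and gja12.1. RefSeq lists gja13.1 and gja13.2 also as older names of each other, so which ID is which is uncertain. The neighbours of GJA1 did not pass or were not tested. The gene gja13.2 averaged 13.8 ± 18.6 CPM with Fsh and 19.5 ± 20.7 CPM in controls, and gja12.2 averaged 3.03 ± 3.86 and 4.69 ± 5.31 CPM (SD, n = 6 each). Their log2 fold changes were −0.50 ± 0.73 and −0.64 ± 0.75 (edgeR, adjusted p = 0.773 and 0.705). They were, without Fsh library 5, −1.64 ± 0.59 and −1.70 ± 0.67 (adjusted p = 0.132 and 0.166). The spread of both within a group was as large as their mean, since single libraries held most of the reads.

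The connexin gja4, whose mammalian counterpart connexin 37 is found in blood vessel lining, had 10.6, 8.15, 9.08, 9.78, 18.0 and 8.25 CPM with Fsh. In controls it had 10.5, 18.8, 18.5, 12.3, 17.8 and 12.0 CPM. Fsh libraries 2, 3, 4 and 6 lay below every control, and Fsh library 1 lay just above the lowest control. Fsh library 5 lay among the highest controls. The log2 fold change of −0.50 ± 0.22 did not pass (edgeR, adjusted p = 0.268). Without Fsh library 5 it passed, at −0.71 ± 0.18 (adjusted p = 0.0461).

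GJD2 (ENSDARG00000070781), whose mammalian counterpart forms electrical synapses between neurons, had 3.79, 5.53, 0.672, 4.64, 1.30 and 7.94 CPM with Fsh and 2.78, 0.700, 1.28, 0.352, 0.644 and 3.35 CPM in controls. The groups overlapped and the log2 fold change of 1.44 ± 0.61 did not pass (edgeR, adjusted p = 0.243). GJA5 (ENSDARG00000069450) averaged 1.62 ± 0.449 CPM with Fsh and 1.15 ± 0.353 CPM in controls (0.47 ± 0.27, adjusted p = 0.405). Both reached the low-count filter mainly through the Fsh group, with 5 and 6 Fsh libraries and 2 control libraries each at the minimum. The other copy of GJD2 held 4 counts over the Fsh libraries and 6 over the controls. The other copy of GJA5 held 41 counts in each group.

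Among the remaining tested connexins, gjc4b averaged 19.6 ± 5.10 CPM with Fsh and 21.4 ± 5.32 CPM in controls. The gene gjb10 averaged 7.52 ± 1.38 and 6.10 ± 1.60 CPM, and GJB6 averaged 2.04 ± 1.90 and 2.87 ± 2.11 CPM, with Fsh and in controls (SD, n = 6 each). Their log2 fold changes were −0.12 ± 0.20, 0.28 ± 0.20 and −0.51 ± 0.57, and none passed (edgeR, adjusted p = 0.794, 0.487 and 0.690). GJB6 was at −1.12 ± 0.53 without Fsh library 5 (adjusted p = 0.245). The groups overlapped in each of these genes.

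Among 13 tested claudins 1 rose and 1 fell, where 0.865% and 0.766% of all tested genes did. The other 11 did not pass, and the median log2 fold change of the 13 was 0.02. The largest change was in cldn7a, a copy of claudin 7, which in mammals marks the sides of epithelial cells. It had 25.8, 69.6, 52.3, 71.5, 50.1 and 61.6 CPM with Fsh, against 4.06, 12.1, 10.6, 9.15, 3.22 and 34.5 CPM in controls. Control library 6 lay above Fsh library 1, and the other 5 controls lay below every Fsh library. The log2 fold change was 2.15 ± 0.47 (edgeR, adjusted p = 0.0392), and 2.77 ± 0.35 without control library 6 (adjusted p = 0.00225). The call was lost in 9 of the 12 fits that leave out 1 library, with an adjusted p of up to 0.0906 and a log2 fold change of at least 1.95.

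The other copy, cldn7b, did not pass. It had 27.2, 18.5, 18.7, 16.6, 124 and 20.6 CPM with Fsh and 21.4, 33.0, 24.4, 24.9, 36.7 and 25.7 CPM in controls. Of the Fsh libraries, 4 lay below every control, and Fsh library 5 stood far above all others. The log2 fold change was 0.44 ± 0.46 over all libraries (edgeR, adjusted p = 0.669) and −0.45 ± 0.17 without Fsh library 5 (adjusted p = 0.146), neither past the threshold.

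**Figure D3:**
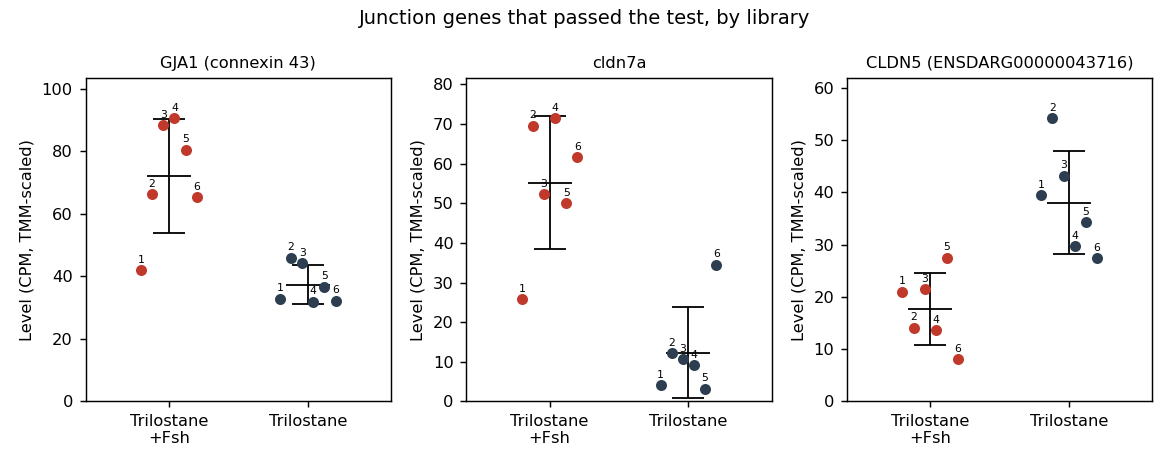
Level (CPM, TMM-scaled) of the junction genes that passed the test, in each library (numbered points), with the group mean and SD as horizontal and vertical lines; Trilostane+Fsh is on the left of each panel. Fsh library 1 lies among the controls for GJA1, control library 6 lies above Fsh library 1 for cldn7a, and Fsh library 5 at 27.5 CPM touches the lowest control at 27.4 CPM for CLDN5.

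CLDN5, claudin 5, is the main claudin of blood vessel endothelium in mammals. It is present here as a pair of copies under 1 symbol, and which cells held them was not tested. CLDN5 (ENSDARG00000043716) fell: it had 21.0, 14.1, 21.5, 13.7, 27.5 and 8.15 CPM with Fsh, against 39.5, 54.2, 43.2, 29.7, 34.3 and 27.4 CPM in controls. The highest Fsh library and the lowest control were at the same level, and all other Fsh libraries lay below every control. The log2 fold change was −1.10 ± 0.26 (edgeR, adjusted p = 0.0491), and 9 of the 12 fits that leave out 1 library lost the call (adjusted p up to 0.115).

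CLDN5 (ENSDARG00000014059) had 117, 84.0, 74.7, 70.0, 191 and 79.8 CPM with Fsh, against 132, 202, 150, 128, 195 and 130 CPM in controls. Of the Fsh libraries, 5 lay below every control, and Fsh library 5 lay near the highest. The change of −0.60 ± 0.24 did not pass (edgeR, adjusted p = 0.207). With Fsh library 5 left out it did (−0.88 ± 0.17, adjusted p = 0.0208), and the other copy then stood at −1.28 ± 0.25 (adjusted p = 0.0209).

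Genes of the blood vessel lining were measured beside CLDN5. Of 19 vascular endothelial markers tested, 1 rose and none fell, where 0.865% and 0.766% of all tested genes did. Their median log2 fold change was 0.11. The defining endothelial cadherin gene cdh5 was at −0.02 ± 0.30 and the receptor gene KDR at 0.07 ± 0.24 (edgeR, adjusted p = 0.985 and 0.922). Without Fsh library 5 the median was −0.15, with 1 higher and 1 lower, where 1.62% and 2.26% of all tested genes were. In that fit cdh5 was at −0.41 ± 0.21 (adjusted p = 0.279) and KDR at −0.12 ± 0.22 (adjusted p = 0.805). The 1 endothelial marker that was then lower was dll4, a Notch ligand of arteries, at −0.79 ± 0.16 (adjusted p = 0.0232). The 1 that was higher was plvapa in both fits. It was at 1.44 ± 0.29 over all libraries (adjusted p = 0.0297) and at 1.39 ± 0.31 without Fsh library 5 (adjusted p = 0.0309).

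Leukocyte markers also differed between the libraries: the summed level of 29 genes was 568 to 1657 CPM with Fsh and 1309 to 2131 CPM in controls. Of 20 tested 1 fell and none rose, where 0.766% and 0.865% of all tested genes did. The log2 fold change was below 0 in 16, with a median of −0.49. Without Fsh library 5, 5 fell, where 2.26% of all tested genes did, 19 of 20 were below 0 and the median was −0.82. A further fit took the mean of these markers as a covariate, and called 215 genes over the whole table, against 315 without it. Most of these markers were below 0, so this fit cannot tell leukocyte content and treatment apart. GJA1 passed in it (1.05 ± 0.21, edgeR, adjusted p = 0.0375). The changes of cldn7a (1.88 ± 0.49, adjusted p = 0.0872) and CLDN5 (ENSDARG00000043716) (−0.74 ± 0.24, adjusted p = 0.148) then missed the threshold. In the same fit CLDN5 (ENSDARG00000014059) was at −0.18 ± 0.11 and gja4 at −0.09 ± 0.14 (adjusted p = 0.414 and 0.780).

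CLDN11, whose mouse counterpart is the main claudin of the Sertoli cell barrier, also exists as a pair of copies. CLDN11 (ENSDARG00000020031) had 82.4, 125, 89.5, 93.6, 91.6 and 92.5 CPM with Fsh and 98.1, 93.7, 72.8, 88.3, 86.8 and 129 CPM in controls. The groups covered the same range, with a log2 fold change of 0.02 ± 0.14 (edgeR, adjusted p = 0.968), which was below 0 without Fsh library 2. CLDN11 (ENSDARG00000030723) had 6.90, 9.32, 7.95, 10.5, 7.78 and 9.55 CPM with Fsh and 20.1, 10.8, 19.7, 11.7, 9.15 and 8.50 CPM in controls. Its log2 fold change of −0.61 ± 0.23 did not pass (adjusted p = 0.185), and control libraries 1 and 3 lay well above the rest.

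A pair of other claudins had higher means with Fsh and did not pass. The gene cldn3d, related to a claudin that depends on androgen in mouse Sertoli cells, had 30.2, 36.7, 57.0, 49.9, 63.2 and 27.7 CPM with Fsh and 11.8, 25.7, 28.8, 30.6, 31.4 and 34.7 CPM in controls (0.69 ± 0.25, edgeR, adjusted p = 0.181). The gene cldng had 3.02, 4.08, 4.15, 3.39, 3.39 and 3.72 CPM with Fsh and 2.35, 2.10, 2.43, 3.05, 2.83 and 2.15 CPM in controls (0.54 ± 0.17, adjusted p = 0.125). For cldng the groups met at a single pair of libraries, Fsh library 1 and control library 4.

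None of the remaining tested claudins passed. CLDN12 averaged 64.3 ± 8.03 CPM with Fsh and 57.1 ± 6.74 CPM in controls (0.17 ± 0.11, edgeR, adjusted p = 0.439). CLDN2, a pore-forming claudin of leaky epithelia in mammals, averaged 37.1 ± 11 and 40.1 ± 3.90 CPM (−0.11 ± 0.17, adjusted p = 0.783). The genes cldn8.2 and cldna were at −0.09 ± 0.19 and 0.15 ± 0.32 (adjusted p = 0.851 and 0.852). The gene cldni had 7.42, 3.06, 5.04, 4.01, 20.2 and 3.42 CPM with Fsh and 5.13, 12.9, 18.7, 5.86, 8.89 and 7.42 CPM in controls, at −0.45 ± 0.47 (adjusted p = 0.667). It was at −1.09 ± 0.35 without Fsh library 5 (adjusted p = 0.0970). The claudin-domain gene CLDND1 averaged 29.1 ± 7.45 CPM with Fsh and 30.1 ± 4.89 CPM in controls (−0.05 ± 0.17, adjusted p = 0.914).

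Neither the junctional adhesion molecules nor the MARVEL proteins held a call. The gene jam2a, a cell surface protein that pairs with Jam3 when zebrafish muscle cells fuse, had 4.14, 9.32, 14.0, 15.6, 9.18 and 10.5 CPM with Fsh and 2.78, 7.17, 4.86, 4.11, 5.02 and 8.74 CPM in controls. Of the Fsh libraries, 5 lay above every control, and Fsh library 1 lay among the lowest controls. The log2 fold change of 0.92 ± 0.31 did not pass (edgeR, adjusted p = 0.150). Its copy jam2b averaged 1.70 ± 0.766 CPM with Fsh and 2.09 ± 1.07 CPM in controls (−0.30 ± 0.37, adjusted p = 0.721). JAM3 averaged 59.5 ± 8.04 and 51.7 ± 10.9 CPM (0.20 ± 0.14, adjusted p = 0.490).

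The 5 tested MARVEL protein genes had log2 fold changes between −0.27 and 0.30, with none past the threshold. MARVELD2 (ENSDARG00000025076), tricellulin, which seals the points where 3 cells meet, had a lowest, median and highest level of 44.5, 59.7 and 63.5 CPM with Fsh and 50.0, 61.4 and 74.3 CPM in controls (−0.09 ± 0.12, edgeR, adjusted p = 0.762). The copy MARVELD2 (ENSDARG00000061651) averaged 4.69 ± 0.703 CPM with Fsh and 5.0 ± 1.03 CPM in controls (−0.09 ± 0.18, adjusted p = 0.840). Occludin, a strand protein, was represented by oclna at 9.12 ± 2.20 CPM with Fsh and 7.44 ± 2.18 CPM in controls (0.30 ± 0.22, adjusted p = 0.526).

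The ZO scaffold genes, which link strands to actin, lay close to their control levels. All 5 were tested and none passed. TJP1 (ZO-1) averaged 199 ± 26.2 CPM with Fsh and 210 ± 25.4 CPM in controls, and tjp1b averaged 55.7 ± 7.40 and 59.2 ± 8.79 CPM (−0.08 ± 0.11 and −0.09 ± 0.12, edgeR, adjusted p = 0.773 and 0.762). The gene tjp3 (ZO-3) averaged 25.4 ± 2.66 CPM with Fsh and 31.1 ± 4.34 CPM in controls, with all 6 Fsh libraries below the control mean (−0.29 ± 0.11, adjusted p = 0.208).

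Zebrafish carries many of these genes as a pair of copies, and 8 pairs had both copies tested. For each pair the log2 ratio of the copies within a library was compared between the groups, with 0.5 CPM added to each level, by an exact two-sided permutation test over 924 arrangements; this comparison was chosen after the levels had been seen. For cldn7a over cldn7b the log2 ratio was 0.93 ± 1.33 with Fsh and −1.52 ± 1.24 in controls (SD, n = 6 each; difference 2.46, exact p = 0.0152, adjusted p = 0.0866 over the 8 pairs). The smallest adjusted p was this value, which the pairs GJA1 over gja1a (difference 0.53) and jam2a over jam2b (1.07) also had. For the CLDN5 copies the difference was −0.48 (exact p = 0.0649, adjusted p = 0.104). The ratios of TJP1 and tjp1b and of the MARVELD2 copies differed by 0 and −0.01 (exact p = 0.972 and 0.959). No pair was thus shown to respond unequally after adjustment.

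A set of claudins and connexins, singled out after their values were seen, stood high in single libraries. Those of the set that were tested did not pass. The gene cldnb had 44.8 CPM in Fsh library 5 and at most 0.431 CPM in the other Fsh libraries, against 15.9 CPM in control library 2, 7.73 CPM in control library 5 and at most 2.69 CPM in the other controls. Its neighbour in the claudin cluster, cldn3c, had 27.3 CPM in Fsh library 5 and at most 0.878 CPM in the other Fsh libraries, against 6.56 and 5.54 CPM in control libraries 2 and 5 and at most 0.855 CPM in the others. Neither reached the low-count filter, so neither was tested.

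In the RefSeq order cldn3c, cldn3d, cldnb, cldn29 and cldnd follow each other directly. The gene cldn3d, between cldn3c and cldnb, was also highest in Fsh library 5 (63.2 CPM), but by less. It had 27.7 to 57.0 CPM in the other Fsh libraries and 11.8 to 34.7 CPM in controls, where library 6 was highest. The genes cldn29 and cldnd averaged under 1 CPM in both groups, too low to judge such a pattern. The claudin gene cldne, from another cluster, had 2.99 CPM in Fsh library 5, at most 0.259 CPM in the other Fsh libraries and at most 0.902 CPM in the controls.

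The connexin genes beside GJA1 were also high in single libraries. The gene gja13.2 had 51.6 CPM in Fsh library 5 and at most 8.65 CPM in the other Fsh libraries, against 59.1 CPM in control library 2, 24.4 CPM in control library 3 and at most 13 CPM in the other controls. The gene gja12.2 had 10.9 CPM in Fsh library 5 and at most 2.01 CPM in the other Fsh libraries, against 15 CPM in control library 2 and at most 5.5 CPM in the other controls. The gene gja12.1 was at 5.99 and 5.33 CPM in Fsh libraries 5 and 6 and at 5.63 CPM in control library 3. In control library 5, where cldnb and cldn3c were raised, gja13.2 stood at 9.02 CPM, near the rest.

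Some epithelial markers stood high in the same libraries as the claudins of this set. Fsh library 5 was the highest of its group for 13 of the 23 epithelial markers. Among the controls library 2 was the highest for 11, library 6 for 5, libraries 1, 3 and 5 for 2 each and library 4 for 1. Over all tested genes, Fsh library 5 was the highest of the 12 libraries for 14.3% and control library 2 for 7.89%. The shares within each group were not counted. The 3 markers given next were picked after their values were seen. CDH17, a cadherin of kidney tubule and gut epithelium, had 146 CPM in Fsh library 5 and 1.12 to 2.11 CPM in the other Fsh libraries, against 52.5 and 38.5 CPM in control libraries 2 and 5 and 1.71 to 6.91 CPM in the other controls. The epithelial transcription factor gene ELF3 had 30.2 CPM in Fsh library 5 and at most 1.01 CPM in the other Fsh libraries, against 9.45 and 5.02 CPM in control libraries 2 and 5. The epithelial adhesion gene epcam had 123 CPM in Fsh library 5 and 12.5 to 26.3 CPM in the other Fsh libraries, against 56.5 CPM in control library 2 and 8.91 to 24.3 CPM in the other controls. Over the 23 epithelial markers, 2 of 18 tested were higher and none lower, where 0.865% and 0.766% of all tested genes were. These 2 were PKP3 (0.81 ± 0.12, edgeR, adjusted p = 0.00705) and krt15 (1.83 ± 0.37, adjusted p = 0.0308). The median log2 fold change was 0.35. Without Fsh library 5, 2 were higher and 2 lower, with a median of 0.06, where 1.62% and 2.26% of all tested genes were. Other markers differed: GRHL2 and ovol1a, at 2.89 and 16.4 CPM in Fsh library 5, were lowest of the Fsh group there, and TP63 and ESRP1 were highest in Fsh libraries 1 (7.59 CPM) and 4 (7.78 CPM). The lysozyme gene lyz, 1 of 29 leukocyte marker IDs, had 31.1 CPM in Fsh library 5 and at most 1.71 CPM in the other Fsh libraries, against 9.80 and 7.99 CPM in control libraries 2 and 5 and at most 1.28 CPM in the other controls. Most of the tested leukocyte markers were highest of the Fsh group in library 5, but not all. Their summed level was 1657 CPM there and at most 1359 CPM in the other Fsh libraries. Among the controls the sum was highest in library 2 (2131 CPM). The highest libraries of ptprc were also Fsh library 5 and control library 2 (98.0 and 77.7 CPM). Those of MPEG1 (ENSDARG00000043093) were Fsh library 1 and control library 3 (87.6 and 178 CPM). For cd4-1, Fsh library 5 was the lowest of its group (1.60 CPM). The claudin cldn7a did not share the pattern, at 50.1 CPM in Fsh library 5 and 12.1 and 3.22 CPM in control libraries 2 and 5. Whether tissue other than testis was present in these libraries was not tested.

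**Figure D4:**
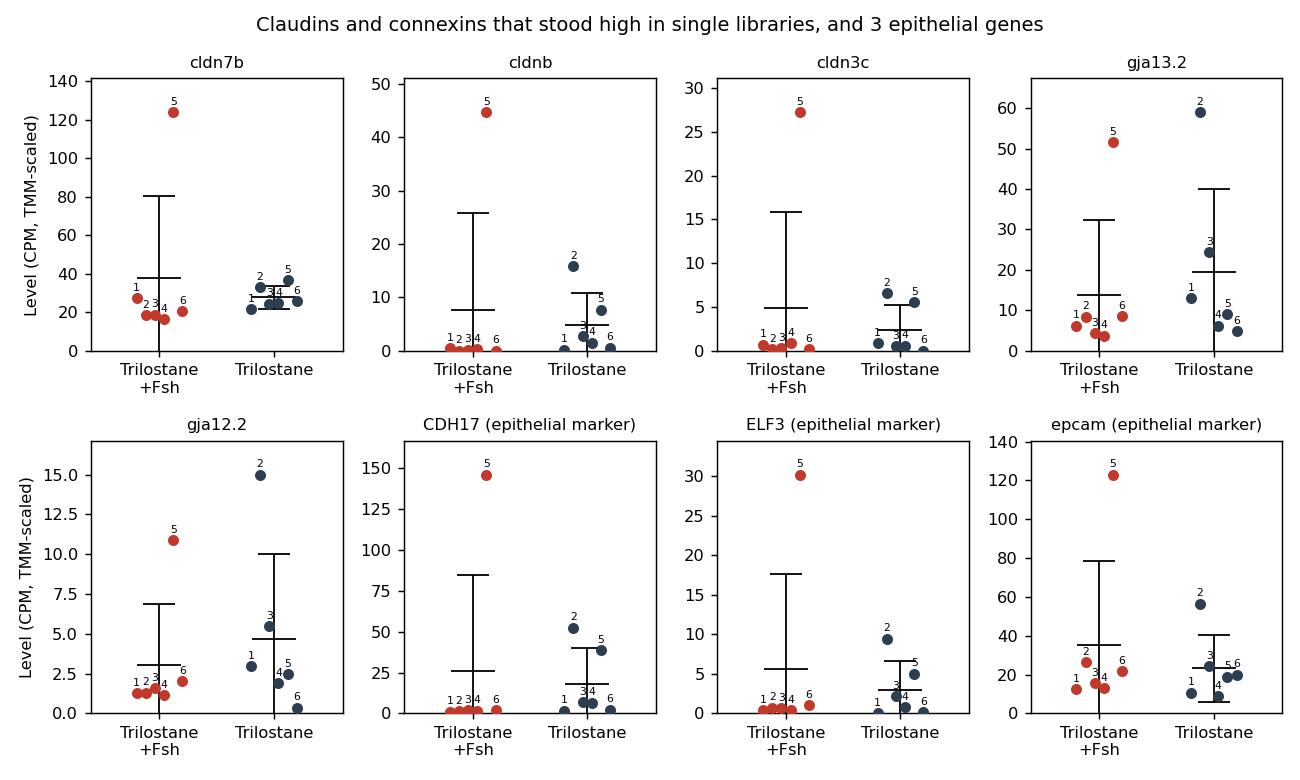
Level (CPM, TMM-scaled) of 5 junction genes and 3 epithelial marker genes in each library (numbered points), with Trilostane+Fsh on the left of each panel, the group mean and the SD as lines, cut off at 0. Fsh library 5 stands highest of its group in every panel, at 124 CPM for cldn7b and 146 CPM for CDH17, and control library 2 stands highest of the controls in all panels except cldn7b, where control library 5 does.

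Fsh library 5 had the highest level of 7 of the 38 tested junction genes, where it had the highest level of 14.3% of all tested genes. Summed over all claudins the level was 781 CPM in this library and 434 to 478 CPM in the other Fsh libraries, against 442 to 597 CPM in the controls. Summed over all connexins it was 223 CPM in Fsh library 5 and 122 to 166 CPM in the other Fsh libraries, against 112 to 198 CPM in the controls. The scaffold genes together stood at 443 CPM in that library, 359 to 439 CPM in the other Fsh libraries and 393 to 465 CPM in the controls. Without Fsh library 5 the test called 2 junction genes higher and 3 lower of 39 tested, where it called 1.62% of all tested genes higher and 2.26% lower; the 3 were both CLDN5 copies and gja4.

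Partners of the junctions were taken from a list of scaffold, polarity and adhesion genes. Of 102 entries 47 matched a symbol, giving 50 gene IDs, of which 48 were tested. Of these 1 rose and none fell, where 0.865% and 0.766% of all tested genes did. An unadjusted p under 0.05 was reached by 6 of the 48 and by 17.4% of all tested genes. The median log2 fold change of the partners was 0.08. The gene that rose was igsf5b, whose mouse counterpart is a junctional adhesion molecule that binds the scaffold protein Magi1. It had 13.5, 18.5, 21.7, 18.4, 18.3 and 20.4 CPM with Fsh, against 7.48, 10.6, 11.3, 9.27, 6.96 and 15.3 CPM in controls. Of the Fsh libraries, 5 lay above every control, and Fsh library 1 lay below control library 6 (0.86 ± 0.19, edgeR, adjusted p = 0.0397). Leaving out single libraries ended this call in 9 of 12 fits (Fsh library 2, 3, 4 or 6, or control library 1, 2, 3, 4 or 5, adjusted p up to 0.0902), as did the leukocyte covariate (adjusted p = 0.102). Over these and the other alternatives the log2 fold change was 0.76 to 1.

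The next partners by p did not pass. CGNL1, paracingulin, which links junctions to actin and small GTPases, had a log2 fold change of 0.39 ± 0.11 (edgeR, adjusted p = 0.0885), and DESeq2 called it (adjusted p = 0.0236). MAGI1 (ENSDARG00000003169), a scaffold protein, was at 0.35 ± 0.11 (adjusted p = 0.128) and f11r.1, the gene of junctional adhesion molecule A, at 0.41 ± 0.16 (adjusted p = 0.188). Pannexins, which form channels in single membranes and not between cells, had 2 tested members: PANX1 (ENSDARG00000025285) at −0.20 ± 0.15 and PANX2 at −0.13 ± 0.34 (adjusted p = 0.515 and 0.884).

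The calls differed in how often they were lost when 1 library was left out. Each of these fits had 5 libraries in 1 group and called 95 to 758 genes over the table, so a lost call need not mean reliance on that library. Leaving out 1 library at a time, GJA1 missed the threshold without control library 5 alone, with a log2 fold change of 0.87 to 1.07 over the 12 fits. It passed narrowly without Fsh library 2, 3 or 4 or control library 1 or 4 (edgeR, adjusted p = 0.0457 to 0.0498). The genes cldn7a and CLDN5 (ENSDARG00000043716) each missed it without Fsh library 2, 3, 4 or 6 or control library 1, 2, 3, 4 or 5. Their log2 fold changes stayed between 1.95 and 2.77 and between −1.28 and −0.94.

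**Figure D5:**
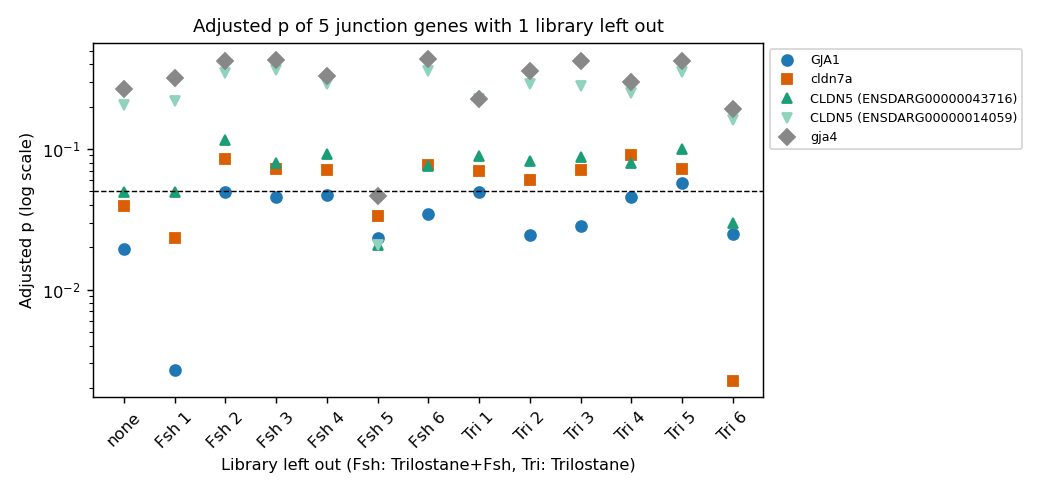
Adjusted p (edgeR, log axis) of GJA1, cldn7a, both CLDN5 copies and gja4 with all libraries (none) and with each library left out in turn (horizontal axis, Fsh for Trilostane+Fsh and Tri for Trilostane). The dashed line is 0.05: GJA1 lies above it without Trilostane library 5 alone, and gja4 and CLDN5 (ENSDARG00000014059) lie below it without Trilostane+Fsh library 5 alone.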

How the data were processed

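Per the labels' protocols, a TruSeq RNA kit from Illumina was used to prepare 12 testis libraries for sequencing. The submitters' processing notes name CASAVA 1.8, STAR 2.3, HTSeq and build Zv9. The sources used here do not say how multi-mapping reads were treated, which annotation release was used or whether strand was counted, so near-identical copies and antisense partners are uncertain. The authors deposited raw counts per Ensembl gene ID, not normalized, with no entries for unassigned reads.

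Symbols came from a table that named 21939 of the 33737 IDs. The test was edgeR 4.0.16 (glmQLFit, glmQLFTest, TMM, filterByExpr by group, no covariates) in R 4.3.3, over 19317 genes, with Benjamini-Hochberg adjustment. The standard error is the log2 fold change divided by the square root of F. The pipeline was tested on simulated counts. Copy ratios used Python 3.11.15 with numpy 2.4.6. A count of 0 allows 3 counts, 0.259 to 0.641 CPM, for counting error only. Replicate pairs differed beyond sampling noise (chi-square per gene 5.43 to 43).

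The genes, lists and tests were chosen with earlier results of these data known. The genes chosen for description were those called, the 12 next by p, the 10 highest in mean CPM and their copies: 26 genes, 24 of them tested. Not all were given per library: some have a mean and SD, a range or counts in place of the single values. Alternatives were DESeq2 1.42.0, limma-voom (limma 3.58.1), other scaling and filters, a robust fit, the replicate number as a block, a leukocyte covariate and omission of each library. No coordinates are given, because the annotation used for gene order is of another build. Some genes of these families are not reported here and are not drawn in the plots.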

Additional observations from a re-analysis of the deposited data

Results flagged for a closer look

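In groups of 6 libraries, a library was set apart where its gap to the nearest other exceeded 0.625 of the group's range. For normally distributed values chance gives about 1 in 20 groups, but CPM levels were used untransformed and were not shown to be normal. Over 35 genes in both groups, 70 in all, 14 were set apart, each as the highest of its group. This count cannot be set against the rate of 1 in 20. Of the 35 genes, 7 were looked at because single libraries already stood high in them.

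With Fsh, library 5 was the highest for cldn7b (124 CPM, next 27.2), cldnb (44.8, next 0.431), cldn3c (27.3, next 0.878), gja13.2 (51.6, next 8.65), cldni (20.2, next 7.42), gja4 (18.0, next 10.6), gja12.2 (10.9, next 2.01) and cldne (2.99, next 0.259). Library 2 was the highest for CLDN11 (ENSDARG00000020031) at 125 CPM (next 93.6), and library 6 for GJA5 (ENSDARG00000069450) at 2.51 CPM (next 1.6).

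In controls, library 2 was the highest for CLDN12 (70.8 CPM, next 55.4), gja13.2 (59.1, next 24.4) and gja12.2 (15, next 5.5). Library 6 was the highest for cldn7a at 34.5 CPM (next 12.1).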

How the results depend on the processing

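Of 599 values of 30 named genes under the alternatives, 556 kept their direction and side of the threshold, 32 lost a call, 3 gained one and 8 changed sign. DESeq2 called 1061 genes over the whole table, against 315, and the same 3 junction genes, as did limma-voom. With no low-count filter no junction gene was called lower, a count of 0 (CLDN5 (ENSDARG00000043716), adjusted p = 0.0554). With the leukocyte covariate 1 junction gene was called higher and 0 lower, and 215 genes were called over the whole table. Leaving out 1 library gave 95 to 758 genes over the table, 0 to 2 junction genes higher and 0 to 3 lower. The count of 758 came without Fsh library 5. The cause of these shifts was not tested.

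Values that changed sign lay near 0 apart from cldn7b. CLDN11 (ENSDARG00000020031) was at −0.07 with the leukocyte covariate and at −0.09 to 0.11 with 1 library left out. TJP1 was at −0.15 to 0.00 and PANX2 at −0.32 to 0.10 with 1 library left out. The gene cldn7b was at −0.45 to 0.59 with 1 library left out, the lowest without Fsh library 5, and at −0.01 with the replicate block.

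Libraries of equal number are not described as paired. Their deviations correlated at 0.02 to 0.26, not all above 0.1, and 2 of 6 Fsh libraries correlated best with the control of their own number. With the replicate number as a block 381 genes were called, among them the same 3 junction genes. Genes under the low-count filter were left out of the test; the fit with no filter called 262 genes over the table.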
